A study of Mus musculus with 17 samples.

Results

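The 10 genes described here encode the machinery that carries a cell from G1 into S phase. The set holds the D cyclins *Ccnd1*, *Ccnd2* and *Ccnd3*, their kinases *Cdk4* and *Cdk6*, the E cyclins *Ccne1* and *Ccne2*, and their kinase *Cdk2*. It also holds *Rb1*, whose protein these kinases phosphorylate, and *E2f1*, for a transcription factor that the protein of *Rb1* holds in check. The genes were taken by gene symbol from a count table of 56691 genes and were measured by bulk RNA-seq of purified mouse astrocytes. All 10 genes were found, and each passed the filter on low counts in all 4 comparisons. The set was chosen by its known roles with earlier results in view, and was selected on the differences of *Ccnd1* and *Cdk6* between SAG and DMSO, so values and calls from that contrast are a description of that selection and support nothing.

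Astrocytes were purified by immunopanning from the brains of C57BL/6 mice at postnatal day 2, without olfactory bulbs and cerebellum. In this method a cell suspension passes over dishes with antibodies against CD45 and O4, which take out immune cells and precursors of oligodendrocytes, before a dish with an antibody against HepaCAM holds back the astrocytes. All 17 cultures grew in serum-free medium that contained the growth factor HB-EGF at 5 ng/ml, so every control also received a mitogen. In the first experiment, 3 cultures received SAG, an agonist of the SHH pathway protein Smoothened, at 500 ng/ml from day 3 in vitro for 3 days, and 3 received the solvent DMSO. In the second, FGF2 (4 cultures) or FGF10 (3 cultures), each at 50 ng/ml, or PBS (4 cultures) was added from day 2 for 7 days. The methods count the cultures of a group as biological replicates, made from pools, and do not say which animals each pool came from, so p-values measure the spread between these pools.

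Libraries were read from the 3ʹ end of polyadenylated transcripts, and a longer transcript does not yield more reads. The total count per library was between 17481727 and 68342287. Levels are given as CPM, counts scaled to a common library size, TMM-normalized over all 17 libraries, and 3 counts in a library correspond to 0.0447 to 0.172 CPM. Of 10 astrocyte markers, all but *S100b*, which was at 0 in 2 libraries, were detected in every library. The summed level of the 10 was between 3399 and 5478 CPM. That of 8 markers of the oligodendrocyte lineage was between 1803 and 4265 CPM, most of it *Olig1* and *Olig2*. The summed level of 8 microglia markers was at most 4.36 CPM, that of 8 neuron markers between 25.4 and 205 CPM, that of 6 endothelial and mural markers at most 74.7 CPM and that of 5 fibroblast markers at most 19.5 CPM. The SAG response of the cultures was seen in *Ptch1*, the SHH receptor and a target of the pathway, at 81.5, 103 and 67.6 CPM in DMSO and at 465, 483 and 458 CPM in SAG. *Gli1*, a target of the SHH pathway, was at 0 CPM in the 3 DMSO cultures and at 38.3, 6.68 and 6.71 CPM in SAG.

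D cyclins are the part of the G1 engine that responds to growth factors. They bind CDK4 or CDK6, and the complex phosphorylates the retinoblastoma protein RB, which otherwise holds the E2F transcription factors in check. Freed E2F raises the E cyclins, which bind CDK2 and complete the phosphorylation of RB, and it raises the genes of DNA replication. SHH is a mitogen for neural progenitors such as those of the cerebellum, where *Ccnd1* and *Ccnd2* are known as its targets, and FGF2 is a classical mitogen of cultured astrocytes and neural progenitors.

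The promoters of the kinase genes *Cdk4* and *Cdk6* are shown because these sister kinases share the D cyclins yet had unlike differences between SAG and DMSO. Each sequence runs 5ʹ to 3ʹ from 250 bases before to 50 bases after a RefSeq start of the gene on GRCm38.p6, plus strand. For *Cdk6* this start lies inside the annotated gene, which begins further upstream, at 3341485, so the sequence before that outer start is not shown. Capitals mark the E-box word CACGTG, the recognition sequence of the MYC and MAX factors.
*Cdk4* promoter, chr10:127063285-127063584: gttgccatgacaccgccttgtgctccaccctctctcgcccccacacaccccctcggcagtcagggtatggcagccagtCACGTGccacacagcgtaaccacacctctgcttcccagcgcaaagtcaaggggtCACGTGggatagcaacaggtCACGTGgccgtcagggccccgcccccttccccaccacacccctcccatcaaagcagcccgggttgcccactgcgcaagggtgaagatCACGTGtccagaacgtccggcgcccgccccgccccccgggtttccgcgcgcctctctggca
*Cdk6* promoter, chr5:3343643-3343942: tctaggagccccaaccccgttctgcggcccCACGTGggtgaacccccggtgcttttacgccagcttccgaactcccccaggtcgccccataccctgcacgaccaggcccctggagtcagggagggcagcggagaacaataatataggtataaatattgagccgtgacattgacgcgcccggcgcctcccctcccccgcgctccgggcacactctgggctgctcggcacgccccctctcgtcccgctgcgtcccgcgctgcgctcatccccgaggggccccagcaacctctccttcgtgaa
The *Cdk4* promoter holds 4 E-boxes, with first bases at -172, -118, -98 and -11 from the start, and the *Cdk6* promoter holds 1, at -220. CACGTG reads the same on both strands, and 7.15% of 32851 RefSeq promoters of this length hold at least 1 copy. As many as 4 copies were found in 8 promoters (0.0244%). The E2F words TTTCCCGC, TTTGGCGC, TTTGCCGC and TTTCGCGC, on both strands, occur in 2.26% of promoters but in neither of these, and the GLI word GACCACCCA, also on both strands, occurs in 0.253% and in neither. These words were chosen after the sequences had been seen, and a match is only a match of letters. Promoters were at hand for 6 of the 10 genes. In the windows of the others, only *Cdk2* holds one of the E2F words, 1 copy, and none holds an E-box. The *E2f1* window (chr2:154569377-154569676) lies wholly within the gene, which begins further upstream, at 154569892 on the minus strand. It therefore does not show what the sequence before that outer start holds.

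Across the 17 libraries *Ccnd2* had the highest level of the set, with a mean of 698 CPM, followed by *Ccnd1* at 188, *Cdk4* at 153, *Cdk6* at 146 and *Ccnd3* at 84.2 CPM. *Rb1* (22.8 CPM), *Cdk2* (14.2 CPM) and *E2f1* (11 CPM) were lower. The E cyclins had the lowest means, 3.39 CPM for *Ccne2* and 3.10 CPM for *Ccne1*. *Ccne2* was at 0 in 8 libraries, *Ccne1* in 5, *E2f1* in 3 and *Cdk2* in 1. Neighbors in this order overlapped in their ranges, among them *Ccnd1*, *Cdk4* and *Cdk6*. *Ccnd1* varied most among the 5 genes with a mean above 50 CPM, by 42.2-fold between the lowest and the highest library.

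**Figure D1:**
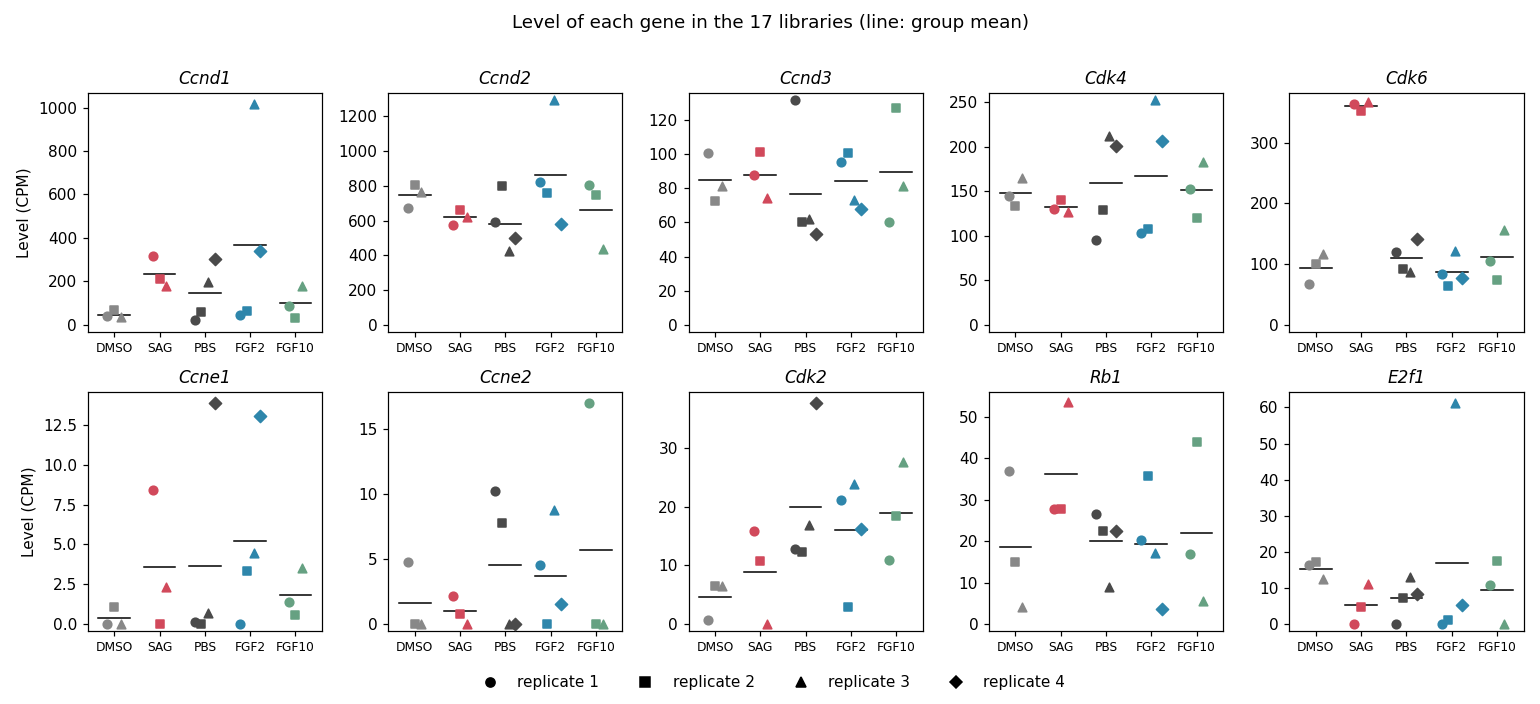
Level of each of the 10 genes in CPM (vertical axis, TMM-normalized) in every library of the 5 groups (horizontal axis). The marker shape gives the replicate number and the line the group mean. The 3 SAG libraries stand at 353 to 367 CPM of *Cdk6*, above all other libraries, and *Ccnd1* separates replicates 1 and 2 from replicates 3 and 4 in PBS and FGF2.

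SAG against DMSO addresses whether activation of SHH signaling changes astrocyte gene programs. In SAG, *Ccnd1* and *Cdk6* were higher, by 5.03-fold and 3.90-fold, while *Ccnd2*, *Ccnd3* and *Cdk4* stood at 0.841, 1.05 and 0.907 times DMSO. A D cyclin and a D cyclin kinase were thus higher, and their closest relatives were not. Of the 10 genes, 2 were called at an adjusted p under 0.05 by edgeR, where 0.0638% of the 12538 genes tested were called, and both were higher in SAG, as 0.0479% of all genes were. DESeq2 called the same 2 of the 10 and 2.93% of all genes. These calls restate what the set was selected on, and nothing is read from their number. In bulk samples, more RNA per cell and a larger share of cells that express a gene cannot be told apart.

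*Ccnd1* (chr7:144929931-144939925, minus strand) encodes cyclin D1. Its level was 39.4, 68.2 and 34.6 CPM in the 3 DMSO cultures and 316, 213 and 177 CPM in the 3 SAG cultures. The groups did not overlap, and the lowest SAG culture was above the highest DMSO culture by more than the whole range of DMSO. The log2(fold-change) was 2.33 ± 0.33 (SE). A gene on the opposite strand, *LTO1*, lies over the 3ʹ end of *Ccnd1*, and the strand setting of the counting is not given in the sources used here. *LTO1* itself was at 4.99 to 49.7 CPM in DMSO and at 2.18 to 18.5 CPM in SAG. An opposite-strand gene lies over the 3ʹ end of 6 of the 10 genes, *Ccnd1*, *Ccnd2*, *Ccnd3*, *Ccne2*, *Cdk4* and *Rb1*. The part of these overlaps in the counts of the 6 genes was not tested.

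*Ccnd2* (chr6:127125162-127152193, minus strand), which encodes cyclin D2, was the most abundant D cyclin in each of these cultures. It stood at 670, 807 and 767 CPM in DMSO and at 573, 662 and 623 CPM in SAG, with all SAG values below all DMSO values and a log2(fold-change) of -0.25 ± 0.16 (SE). *Ccnd3* (chr17:47505051-47599691, plus strand), for cyclin D3, was at 101, 72.7 and 81.4 CPM in DMSO and at 87.8, 101 and 74.2 CPM in SAG. The groups overlapped, and the difference of 0.07 ± 0.28 (SE) on the log2 scale was smaller than its error.

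The summed level of the 3 D cyclins was 880 ± 68.4 CPM (SD, n = 3) in DMSO and 942 ± 59.3 CPM (SD, n = 3) in SAG, so the sum moved far less than *Ccnd1* alone. Within a library, *Ccnd1* had 0.0588, 0.0846 and 0.0452 counts per count of *Ccnd2* in DMSO and 0.551, 0.322 and 0.284 in SAG. These ratios use counts of the same library, so they do not depend on library size, and their groups did not overlap. The D cyclin with the lower count therefore gained on the one with the higher count without overtaking it in any of the 6 cultures.

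*Cdk6* (chr5:3341485-3531008, plus strand) encodes one of the 2 kinases that D cyclins activate. Its level was 66.5, 99.7 and 116 CPM in DMSO and 364, 353 and 367 CPM in SAG, with a log2(fold-change) of 1.96 ± 0.24 (SE). The SAG cultures were close together, with an SD of 7.64 CPM against 25.2 CPM in DMSO. No annotated gene covers its 3ʹ end. *Cdk4* (chr10:127063534-127067920, plus strand), the sister kinase, was at 145, 134 and 165 CPM in DMSO and at 130, 140 and 126 CPM in SAG, and its groups overlapped. Its log2(fold-change) was -0.14 ± 0.22 (SE). *Tspan31* lies over the 3ʹ end of *Cdk4* on the opposite strand and was at 29.1 to 53.5 CPM in DMSO and 19.4 to 60.3 CPM in SAG.

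The order of the kinases was thus exchanged. DMSO cultures had 0.459, 0.746 and 0.702 *Cdk6* counts per *Cdk4* count, and SAG cultures had 2.81, 2.52 and 2.90. In all 3 SAG cultures *Cdk6* exceeded *Cdk4*, and in none of the 3 DMSO cultures did it. Summed, the kinases stood at 242 ± 35.7 CPM (SD, n = 3) in DMSO and at 493 ± 0.771 CPM (SD, n = 3) in SAG. Among the 11 cultures of the FGF experiment the ratio was above 1 only in PBS replicate 1, at 1.25.

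**Figure D2:**
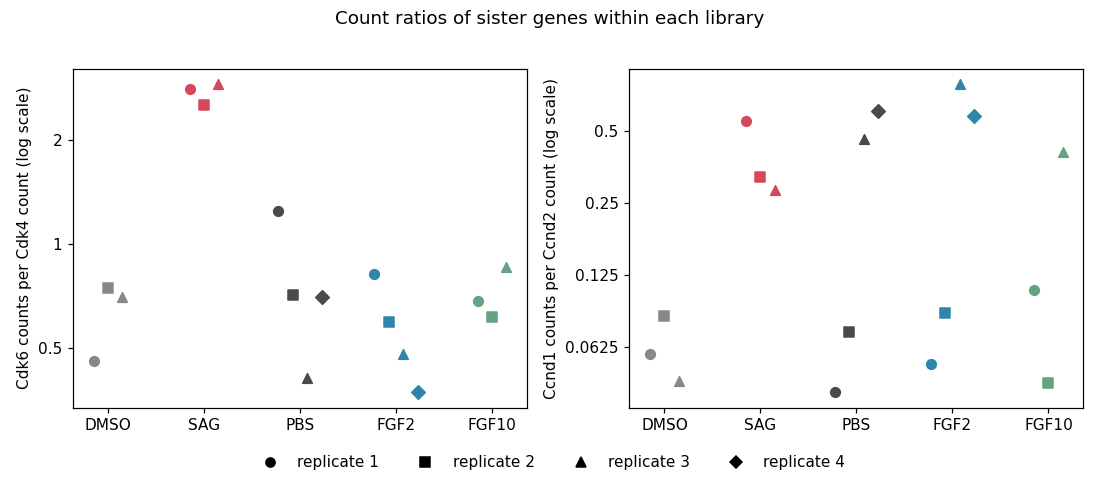
Counts of *Cdk6* per count of *Cdk4* (left) and of *Ccnd1* per count of *Ccnd2* (right) within each library, on log axes, for the 5 groups, with the replicate number as marker shape. The 3 SAG libraries lie at 2.52 to 2.90 on the left, above every other library, and at 0.284 to 0.551 on the right, a range that replicates 3 and 4 of PBS, FGF2 and FGF10 also reach or exceed.

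The genes that act after the D cyclin kinases had low counts and wide errors. *Ccne1* (chr7:38097984-38107534, minus strand), for cyclin E1, was at 0, 1.07 and 0 CPM in DMSO and at 8.42, 0 and 2.30 CPM in SAG. *Ccne2* (chr4:11191351-11204779, plus strand), for cyclin E2, was at 4.78, 0 and 0 CPM in DMSO and at 2.15, 0.760 and 0 CPM in SAG. Both groups held a library at 0 for each E cyclin, and the groups overlapped. *Cdk2* (chr10:128697939-128705031, minus strand), the kinase of the E cyclins, was at 0.718, 6.52 and 6.56 CPM in DMSO and at 15.8, 10.7 and 0 CPM in SAG. The log2(fold-change) of *Cdk2* was 0.96 ± 2.27 (SE), and those of *Ccne1* and *Ccne2*, 3.32 and -0.70, had errors of 3.51 and 3.31.

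*Rb1* (chr14:73183673-73325822, minus strand), for the retinoblastoma protein, was at 36.9, 14.9 and 4.11 CPM in DMSO and at 27.8, 27.7 and 53.5 CPM in SAG. The groups overlapped through DMSO replicate 1, and the log2(fold-change) was 0.99 ± 0.80 (SE). *E2f1* (chr2:154559407-154569892, minus strand), for the E2F factor that RB binds, was at 16.2, 17.1 and 12.6 CPM in DMSO and at 0, 4.62 and 11.1 CPM in SAG. All SAG values were lower, and the log2(fold-change) of -1.51 ± 1.86 (SE) was within its error. Without overlap between the groups stood 4 of the 10 genes, against 14.2% of all genes tested. *Ccnd1* and *Cdk6* were higher in SAG, as 5.96% of all genes were without overlap, and *Ccnd2* and *E2f1* were lower, as 8.21% were. Nothing is read from either count, since this contrast was used to propose the set.

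The 2 calls rested on each of the 6 cultures. With DMSO replicate 1, SAG replicate 2 or SAG replicate 3 left out, 0 of the 10 genes were called, and with DMSO replicate 2, DMSO replicate 3 or SAG replicate 1 left out, 1 was called, *Ccnd1* in the first case and *Cdk6* in the others. The differences themselves moved little, with a log2(fold-change) of 2.07 to 2.69 for *Ccnd1* and of 1.77 to 2.14 for *Cdk6* over these 6 fits. With all 17 libraries in one fit *Cdk6* alone was called, and the error of *Ccnd1* grew to 0.81.

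Markers of another cell type moved with these differences. The summed level of 8 markers of the oligodendrocyte lineage was 1964 to 2384 CPM in DMSO and 3655 to 3857 CPM in SAG. *Olig1* carried much of this, with 686 to 773 CPM in DMSO and 1699 to 1775 CPM in SAG, as did *Olig2*, with 940 to 1439 CPM and 1765 to 1913 CPM. The other 6 markers together were lower in SAG, at 138 to 169 CPM against 178 to 309 CPM, and *Mog*, a marker of mature oligodendrocytes, was at 0 in all 6 cultures. The 6 endothelial and mural markers were also without overlap, at 23.5 to 28.3 CPM in DMSO and 7.64 to 18.1 CPM in SAG, whereas the neuron markers (73.4 to 205 and 26.1 to 75.5 CPM) and the astrocyte markers (4178 to 4497 and 3627 to 4295 CPM) overlapped. The part of any of these cells in the levels of *Ccnd1* and *Cdk6* was not tested.

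The other genes of the G1/S pathway were taken from 7 lists with 64 genes in the table, of which 61 were tested in SAG against DMSO. None of the 61 was called by edgeR or by DESeq2, and 1 had an unadjusted p under 0.05 by edgeR, where 5.69% of all genes did. By sign, 34 had a positive and 27 a negative log2(fold-change), with a median of 0.08 against -0.02 over all genes tested. Groups did not overlap for 8 of the 61, against 14.2% of all genes.

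Of the 7 inhibitors of G1 kinases, 4 had a positive and 3 a negative log2(fold-change). *Cdkn1b*, for p27, the most abundant of them, was at 550, 691 and 556 CPM in DMSO and at 380, 477 and 492 CPM in SAG. All SAG values were lower, with a log2(fold-change) of -0.39 ± 0.18 (SE) that was not called (adjusted p = 0.910, edgeR). The largest differences among the inhibitors belonged to genes of the INK4 family, which bind CDK4 and CDK6. *Cdkn2a* was at 17.8 ± 10.3 CPM (SD, n = 3) in SAG and 9.56 ± 1.85 CPM in DMSO, and *Cdkn2d* at 30.8 ± 14.1 CPM and 17.7 ± 1.89 CPM. *Cdkn2b* was at 10.2 ± 12.7 CPM and 6.37 ± 1.65 CPM. Each had an adjusted p of 1.00 by edgeR.

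Among 10 tested pocket proteins, E2F factors and DP partners, 4 log2(fold-changes) were positive and 6 negative, and those of largest size were *E2f2* (-1.74 ± 2.50, SE), *Tfdp1* (-1.63 ± 2.72) and *E2f8* (1.28 ± 3.24). Of 9 genes for the turnover of cyclins D and E and of p27, 2 were positive and 7 negative. *Fbxo4*, for an F-box protein, had -1.45 ± 1.57 (SE), *Skp2*, which targets p27, 0.94 ± 1.06, and its partner *Cks1b* 0.61 ± 0.69. The 5 genes for activation and folding of G1 kinases moved least, from -0.27 for *Mnat1* to 0.33 for *Cdk7*, with *Cdc37*, the chaperone partner that loads CDK4, at 0.26 ± 0.31 (SE). *Myc* was at 18.9 ± 19.9 CPM (SD, n = 3) in DMSO and 31.4 ± 40.6 CPM in SAG, and *Mycn* at 22.0 ± 13.6 CPM and 10.4 ± 5.89 CPM. Neither was called.

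E2F target genes of S phase entry, which lie downstream of the set, had 12 positive and 8 negative log2(fold-changes) among 20 tested, with a median of 0.19. Their summed level was 411 ± 74.4 CPM (SD, n = 3) in DMSO and 414 ± 28.2 CPM in SAG. The largest differences were those of *Cdc6* (1.78 ± 3.15, SE), *Slbp* (1.69 ± 1.84) and *Mcm4* (-1.19 ± 1.37). Mitotic genes were positive in 7 of 8, with a median of 0.80, and their sum was 152 to 241 CPM in DMSO and 239 to 407 CPM in SAG. The largest differences here were those of *Plk1* (3.22 ± 1.59, SE), *Aurkb* (-2.57 ± 2.79) and *Ccnb1* (1.57 ± 2.23), and *Top2a*, for topoisomerase II alpha, was the gene with an unadjusted p under 0.05 (0.96 ± 0.39, adjusted p = 0.749 by edgeR).

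FGF2 against PBS addresses whether an FGF ligand shapes astrocyte gene programs. None of the 12744 genes tested was called at an adjusted p under 0.05 by edgeR (0%), and so none of the 10. At an unadjusted p under 0.05 edgeR gave 223 genes (1.75%) and 1 of the 10, *Ccnd2*, and DESeq2 called 9 genes (0.0706%) and none of the 10. Without overlap between the groups stood 0 of the 10 genes, against 2.45% of all genes.

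*Ccnd2* was at 594, 800, 427 and 501 CPM in PBS and at 820, 759, 1291 and 583 CPM in FGF2. Each FGF2 culture but replicate 2 was above the PBS culture of its number, and the groups overlapped. The log2(fold-change) was 0.58 ± 0.26 (SE), with an adjusted p of 1.00 by edgeR and an exact two-sided permutation p of 0.143. *Ccnd1* was at 24.1, 57.9, 199 and 305 CPM in PBS and at 43.7, 65.9, 1017 and 339 CPM in FGF2. FGF2 was higher than PBS at each of the 4 replicate numbers, but within either group the highest culture was more than 10 times the lowest. The log2(fold-change) was 1.32 ± 0.88 (SE), with an adjusted p of 1.00 by edgeR, and it was 0.034 without FGF2 replicate 3. *Ccnd3* was at 132, 60.5, 62.1 and 53.1 CPM in PBS and at 95.4, 101, 73.1 and 68.0 CPM in FGF2.

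The summed level of the 3 D cyclins was 750, 918, 688 and 859 CPM in PBS and 959, 926, 2381 and 990 CPM in FGF2. All 4 FGF2 cultures were above all 4 PBS cultures in this sum, though the nearest, FGF2 replicate 2 and PBS replicate 2, were close, and it is given as a description without a test. The *Ccnd1* count per *Ccnd2* count overlapped, at 0.0406, 0.0724, 0.466 and 0.610 in PBS and at 0.0533, 0.0868, 0.788 and 0.582 in FGF2.

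The kinases differed less. *Cdk6* was at 120, 91.9, 87.0 and 141 CPM in PBS and at 84.4, 63.9, 121 and 77.2 CPM in FGF2, with a log2(fold-change) of -0.34 ± 0.27 (SE). *Cdk4* was at 95.7, 129, 212 and 200.3 CPM in PBS and at 103, 107, 253 and 207 CPM in FGF2, with a log2(fold-change) of 0.08 ± 0.34 (SE). Both genes overlapped between the groups, and each had an adjusted p of 1.00 by edgeR. The *Cdk6* count per *Cdk4* count was 1.25, 0.713, 0.411 and 0.703 in PBS and 0.820, 0.595, 0.480 and 0.374 in FGF2.

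Among the later genes of the set, *Ccne1* was at 0.123, 0, 0.685 and 13.9 CPM in PBS and at 0, 3.32, 4.44 and 13.1 CPM in FGF2. *Ccne2* was at 10.2, 7.81, 0 and 0 CPM in PBS and at 4.53, 0, 8.76 and 1.58 CPM in FGF2. *Cdk2* was at 12.8, 12.4, 17 and 37.7 CPM in PBS and at 21.2, 2.87, 23.9 and 16.2 CPM in FGF2. All of them overlapped between the groups, and their log2(fold-changes) of 0.51, -0.27 and -0.31 had errors of 2.30, 2.36 and 0.75. *Rb1* was at 26.5, 22.4, 8.91 and 22.5 CPM in PBS and at 20.4, 35.7, 17.2 and 3.49 CPM in FGF2, a difference of -0.06 ± 0.71 (SE) on the log2 scale. *E2f1* was at 0, 7.32, 13 and 8.23 CPM in PBS and at 0.0736, 1.09, 61.2 and 5.34 CPM in FGF2. Its mean was higher in FGF2 through replicate 3 alone, since the other 3 FGF2 cultures were at or below 5.34 CPM.

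FGF10 against PBS asks the same of a second FGF ligand and shares its PBS cultures with the comparison above. None of the 13309 genes tested was called by edgeR (0%), 305 (2.29%) had an unadjusted p under 0.05, and DESeq2 called 37 (0.278%). None of the 10 genes was among any of these, and 0 of the 10 stood without overlap, against 4.79% of all genes. In FGF10, *Ccnd1* was at 87.0, 33.0 and 179 CPM, *Ccnd2* at 805, 747 and 436 CPM and *Ccnd3* at 60.0, 127 and 81.5 CPM. All 3 D cyclins lay within or just above the range of PBS, with log2(fold-changes) of -0.55 ± 0.71, 0.20 ± 0.26 and 0.23 ± 0.37 (SE).

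*Cdk4* was at 153, 119 and 183 CPM and *Cdk6* at 104, 73.7 and 157 CPM in FGF10, with log2(fold-changes) of -0.07 ± 0.30 and 0.03 ± 0.31 (SE) against PBS. These errors do not show that FGF10 and PBS act alike. *Ccne1* was at 1.40, 0.557 and 3.50 CPM, *Ccne2* at 17, 0 and 0 CPM and *Cdk2* at 10.9, 18.4 and 27.6 CPM. *Rb1* was at 16.8, 43.8 and 5.53 CPM and *E2f1* at 10.8, 17.5 and 0 CPM. The errors of these 5 genes on the log2 scale were between 0.71 and 2.83, larger than each difference.

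Tested directly against each other, FGF2 and FGF10 gave no call among 13493 genes by edgeR (0%), 324 genes (2.4%) at an unadjusted p under 0.05, and 28 (0.208%) by DESeq2. None of the 10 genes was in these counts, and 0 of the 10 stood without overlap, against 4.9% of all genes. *Ccnd1* differed most among the 5 more abundant genes, with a log2(fold-change) of 1.89 ± 0.91 (SE) that was not called (adjusted p = 1.00, edgeR) and fell to 0.59 without FGF2 replicate 3. *Ccnd2* had 0.39 ± 0.30, *Cdk6* -0.36 ± 0.32, *Cdk4* 0.15 ± 0.34 and *Ccnd3* -0.08 ± 0.31 (SE).

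**Figure D3:**
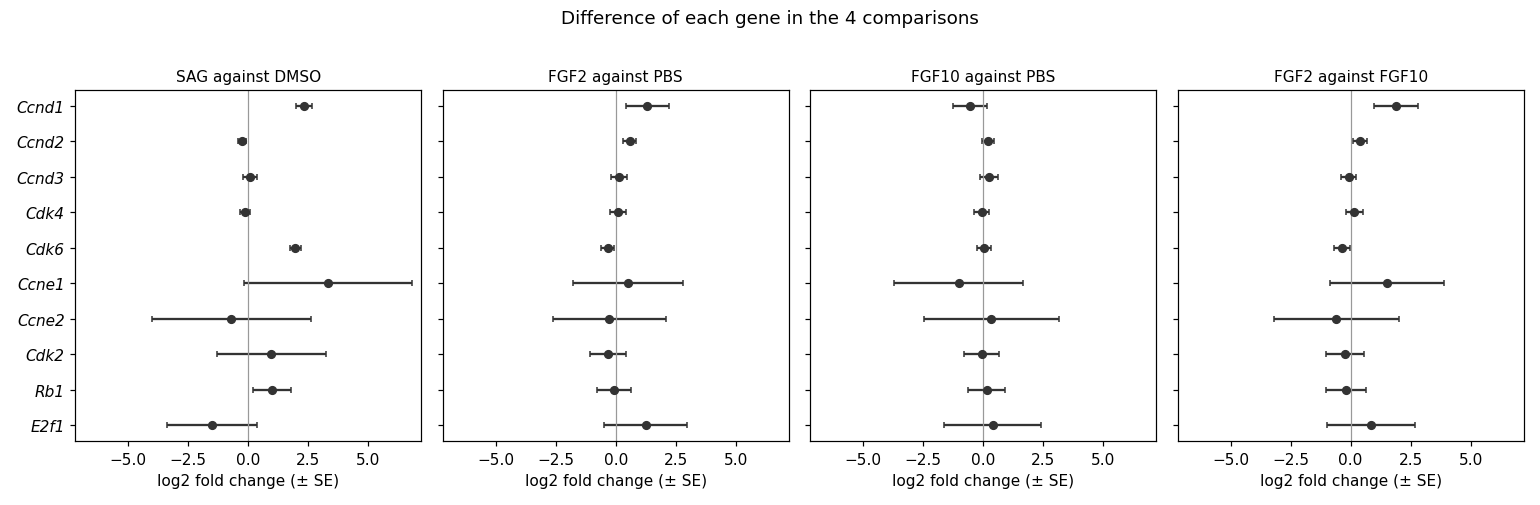
log2(fold-change) of each of the 10 genes (horizontal axis, points) with its standard error (bars) from edgeR in the 4 comparisons. *Ccnd1* and *Cdk6* lie at 2.33 and 1.96 with narrow bars in SAG against DMSO, and the E cyclins and *E2f1* have the 3 widest bars in the FGF comparisons.

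Within the FGF experiment *Ccnd1* and *Cdk4* separated by replicate number, whereas the ligand groups overlapped for both. In the 6 cultures numbered 1 and 2, of all 3 groups, *Ccnd1* was at 24.1 to 87.0 CPM with a median of 50.8, and in the 5 cultures numbered 3 and 4 at 179 to 1017 CPM with a median of 305. *Cdk4* was at 95.7 to 153 CPM in the first and at 183 to 253 CPM in the second. Neither gene overlapped between the sets, as 703 of 15458 genes (4.55%) did not. The ratio of means was 7.85 for *Ccnd1* and 1.79 for *Cdk4*. The labels name no batch, and which feature of these cultures the numbers stand for is not given in the sources used here, so the split is a description.

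The other 8 genes overlapped between the sets. *Ccnd2* was at 594 to 820 CPM in replicates 1 and 2 and at 427 to 1291 CPM in replicates 3 and 4, where FGF2 replicate 3 was the only culture above 583 CPM. *Cdk6* was at 63.9 to 120 CPM and 77.2 to 157 CPM. *Rb1* was lower on average in replicates 3 and 4, at 3.49 to 22.5 CPM against 16.8 to 43.8 CPM, and *E2f1* ranged from 0 to 17.5 CPM and from 0 to 61.2 CPM.

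Within the sets, FGF2 and PBS differed in *Ccnd1* by a log2(fold-change) of 0.43 ± 0.54 (SE) in replicates 1 and 2 and of 1.43 ± 0.47 in replicates 3 and 4. For *Ccnd2* these values were 0.19 ± 0.19 and 1.01 ± 0.34. Neither was called in either set (adjusted p of 0.924 or more, edgeR). FGF10 and PBS differed in *Ccnd1* by 0.55 ± 0.63 in replicates 1 and 2, with the opposite sign from all cultures pooled, and replicates 3 and 4 hold only 1 FGF10 culture.

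Mitotic genes moved with the same split. The summed level of 9 of them was 106 to 327 CPM in replicates 1 and 2 and 1070 to 1631 CPM in replicates 3 and 4. No culture numbered 3 or 4 was below any numbered 1 or 2 for 7 of the 9, *Cdk1*, *Mki67*, *Top2a*, *Ccnb1*, *Plk1*, *Aurkb* and *Cdc20*. Of 21 E2F target genes 1 did so, *Ccna2*, the cyclin of S and G2 phase. None of the 7 inhibitors was higher throughout, and *Cdkn1b* was lower throughout, at 431 to 483 CPM against 512 to 736 CPM. Over all genes 4.55% did not overlap between the sets in either direction, and 1 of 21 is close to that share.

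The marker list of the oligodendrocyte lineage moved with the split as well, from 1803 to 2066 CPM in replicates 1 and 2 to 3277 to 4265 CPM in replicates 3 and 4. As with SAG, *Olig1* and *Olig2* carried it, at 546 to 652 CPM against 1435 to 1858 CPM and at 757 to 986 CPM against 1504 to 2220 CPM. The other 6 markers together were at 351 to 538 CPM in the first set and 123 to 337 CPM in the second. Other lists were lower in replicates 3 and 4 without overlap. The neuron markers were at 128 to 176 CPM in the first set and 25.4 to 43.5 CPM in the second, the astrocyte markers at 4637 to 5478 CPM and 3399 to 3918 CPM, and the endothelial and mural markers at 18.2 to 74.7 CPM and 0 to 18.0 CPM. The part of any of these cells in the levels of *Ccnd1* and *Cdk4* was not tested.

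Across all 17 libraries, log2 CPM of *Ccnd1* and of *Cdk4* followed that of the summed mitotic genes, with Pearson's r of 0.841 and 0.816, and that of *Cdk6* did not, with 0.0375. The points share groups and replicate sets, so these values are a description and carry no p. The SAG cultures had 316, 213 and 177 CPM of *Ccnd1* at mitotic sums of 407, 381 and 239 CPM. FGF experiment cultures with a sum of up to 327 CPM, below the first 2 of these sums, had at most 87.0 CPM of *Ccnd1*. The experiments differ in vehicle, start and duration, and the set was selected on *Ccnd1* in SAG. These values are thus a description, and the part of dividing cells in them was not tested.

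**Figure D4:**
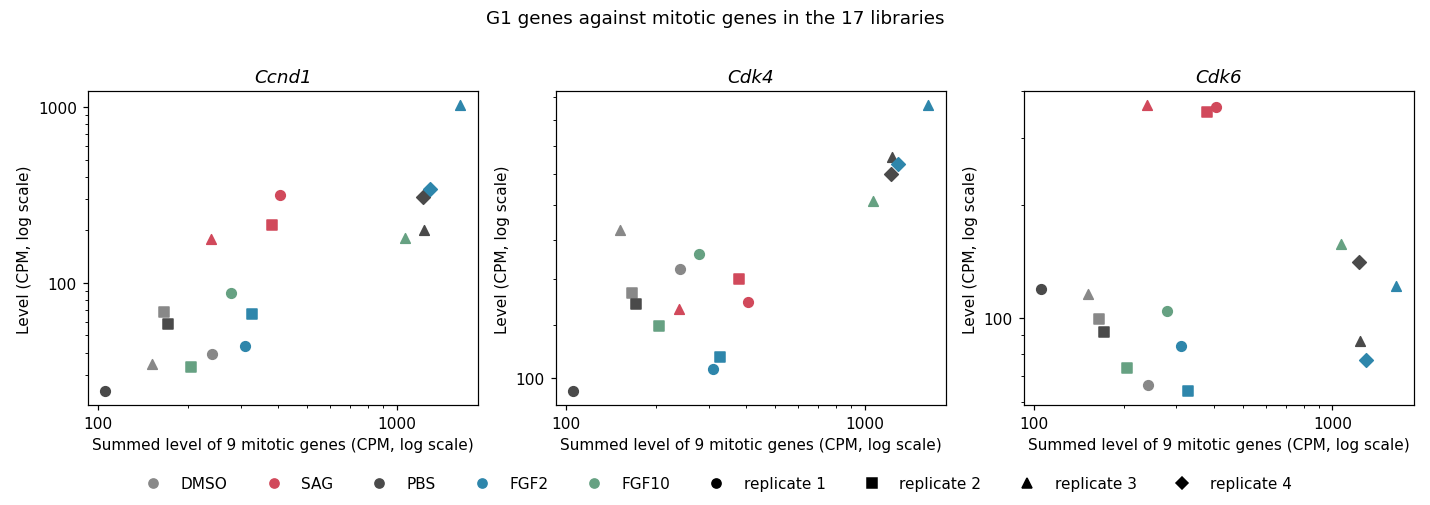
Level of *Ccnd1*, *Cdk4* and *Cdk6* (vertical axes, CPM, log scale) against the summed level of 9 mitotic genes (horizontal axes, CPM, log scale) in the 17 libraries, with color for the group and marker shape for the replicate number. Replicates 3 and 4 of PBS, FGF2 and FGF10 form a cluster at a sum of 1070 to 1631 CPM with high *Ccnd1* and *Cdk4*, whereas the 3 SAG libraries stand apart in *Cdk6*.

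In the FGF comparisons, 63 of the 64 other pathway genes were tested and none was called by edgeR (0%) or by DESeq2. In FGF2 against PBS 44 log2(fold-changes) were positive and 19 negative, with a median of 0.21 against 0.0011 over all genes, and 0 of the 63 had an unadjusted p under 0.05. Mitotic genes had 9 of 9 positive signs with a median of 0.50, and E2F targets had 15 of 20 with a median of 0.32. Among the latter *Cdt1*, which licenses replication origins, was at 5.67 ± 6.68 CPM (SD, n = 4) in PBS and 16.2 ± 7.75 CPM in FGF2, and *Uhrf1* at 8.49 ± 3.14 CPM and 23.9 ± 14 CPM. In FGF10 against PBS 28 were positive and 35 negative, and mitotic genes had 0 of 9 positive signs with a median of -0.48. These groups are not balanced over the replicate sets, since 1 of 3 FGF10 cultures but 2 of 4 PBS cultures are numbered 3 or 4. At replicate numbers 1 and 2 the mitotic sum was higher in FGF10 (278 and 205 CPM) than in PBS (106 and 171 CPM), and at number 3 it was lower (1070 against 1239 CPM).

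In the remaining lists for FGF2 against PBS, signs were mixed. Of the 7 inhibitors, 6 were positive. *Cdkn2d* was at 13 ± 4.18 CPM (SD, n = 4) in PBS and 22.8 ± 8.43 CPM in FGF2. *Cdkn1c*, for p57, was the inhibitor with a negative sign, at 71.9 ± 29.3 CPM and 43.0 ± 17.1 CPM. *Rbl1*, for the pocket protein p107, had a log2(fold-change) of 1.81 ± 2.08 (SE) and *Tfdp1*, a partner of E2F, 1.17 ± 1.86. Of the turnover genes, *Fbxo31* had 0.86 ± 0.70 and *Skp2* 0.64 ± 0.56. *Ccnh* and *Cdk7*, the cyclin and kinase that activate CDKs, had 0.63 ± 0.60 and -0.48 ± 0.77. *Myc* and *Mycn* had -0.41 ± 0.99 and 0.42 ± 0.92, and the mitotic genes *Birc5* and *Bub1* 1.07 ± 1.12 and 0.78 ± 1.97 (SE). The adjusted p of each was 1.00 by edgeR. Between FGF2 and FGF10, which are unbalanced in the same way, 46 of the 63 were positive and 17 negative, and 1 had an unadjusted p under 0.05, the inhibitor *Cdkn1a*, for p21 (log2(fold-change) of 0.83 ± 0.36, SE, adjusted p = 1.00 by edgeR).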

How the data were processed

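Bulk RNA-seq of 17 libraries from 5 groups was analyzed (3 DMSO, 3 SAG, 4 PBS, 4 FGF2, 3 FGF10). Groups and replicate numbers came from the labels, doses and times from the methods, and the SAG columns of the table are named after SHH. The methods give fewer FGF2 cultures than the 4 labeled, and all 4 were used. The authors prepared 3ʹ-end libraries, chose PCR cycles per library, aligned and counted reads with STAR 2.7.10 and tested with DESeq2 1.38.3. The table they deposited holds raw read counts, whole numbers for each gene and library. Strand setting and removal of PCR duplicates are not given in the sources used here, and copied reads could be counted more than once. The submitters' processing notes name GRCm38. Of 56805 rows, 114 spike-in rows (at most 86 counts in a library) were left out, and 77 symbols on more than 1 row were kept apart. Positions are those of GENCODE M21, in which 50664 of 55809 symbols (90.8%) were found, and the table also holds identifiers that M21 lacks. Promoters are from RefSeq.

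The members and lists were chosen with earlier results of these data known. The tools were edgeR 4.0.16, DESeq2 1.42.0 and limma 3.58.1, run in R 4.3.3. Each comparison used only its own libraries, with filterByExpr (minimum count 10, minimum total 15), TMM and the quasi-likelihood test without covariates, and Benjamini-Hochberg adjustment over all genes tested. A gene past an adjusted p of 0.05 was called. Standard errors were derived from the F statistic. For each member an exact permutation test of CPM (two-sided) was added. The smallest p it allows is 0.1 with 3 against 3 cultures and 0.0286 otherwise. Named genes are the 10 members, called pathway genes, up to 3 genes per list with the largest log2(fold-change) in SAG against DMSO and up to 2 in FGF2 against PBS, *Ptch1* and *Gli1*, the 5 genes most like *Cdk6*, *Ccnd1* and *Ccnd2*, and markers. *Cdkn1b*, *Cdkn1a*, *Top2a*, *Ccna2* and the mitotic genes that differed between replicate sets were named after their values had been seen.

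Deviations from group means correlated between cultures of the same number for FGF2 with PBS (0.19, 0.197, 0.221 and 0.185) and FGF2 with FGF10 (0.156, 0.172 and 0.248). This was a check on the data, since the labels do not say what the numbers mark. The same number was not always the best match. In both comparisons number 1 was matched best by number 2, and for FGF2 with PBS number 3 was matched best by number 4. For FGF10 with PBS the replicate numbers did not pass in every pair (0.0998, 0.116 and 0.221), nor for SAG with DMSO (-0.0149, -0.03 and 0.0102). No 2 libraries of a group were the same library (chi-square per degree of freedom of 152 to 532 over 21 pairs). The test was checked on simulated counts that varied less between cultures than these data. Here the common coefficient of variation between cultures was 107% to 115%, so the check cannot show the power of the test in these data. Alternatives were DESeq2's size factors and Wald test, 2 other filters and all 17 libraries in one fit. Others were the replicate block, replicate sets and each library left out. The study's threshold (adjusted p under 0.01 and log2(fold-change) above 1) was set on edgeR's values.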

Additional observations from a re-analysis of the deposited data

Results flagged for a closer look

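Among the 20 groups of 4 cultures formed by the 10 genes in PBS and FGF2, 3 held a culture far from the others by Dixon's criterion, which chance gives in about 1 in 20 groups. *Ccnd3* was at 132 CPM in PBS replicate 1, and the next PBS culture was at 62.1 CPM, a gap of 0.886 of the range. *Ccne1* was at 13.9 CPM in PBS replicate 4, with the next at 0.685 CPM (0.951 of the range), and *E2f1* at 61.2 CPM in FGF2 replicate 3, with the next at 5.34 CPM (0.914 of the range). FGF2 replicate 3 was also the highest culture of the experiment for *Ccnd1*, *Ccnd2* and *Cdk4*. The cause was not tested.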

How the results depend on the processing

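Of 547 alternative values of the 10 genes, 467 kept their direction and their side of the threshold and 69 changed sign, with the cause not tested except where stated. No alternative called any of the other pathway genes. The number of members called in SAG against DMSO was 2, also with the replicate block and with DESeq2. It was 1 with all 17 libraries in one fit, and 0 to 1 with each library left out, where fewer samples entered the fit. It was 0 with the study's threshold set on edgeR's values, but the study tested with DESeq2. By DESeq2, *Ccnd1* (log2(fold-change) of 2.35, adjusted p = 6.15e-12) and *Cdk6* (1.98, adjusted p = 1.52e-16) were past that threshold, which again describes the selection. In FGF2 against FGF10, 0 members were called, and 1 without a filter on low counts (*Ccnd1*, adjusted p = 1.15e-05 by edgeR). The share of all genes called without that filter is not given here, so nothing is read from this call. With the filter, the log2(fold-change) of *Ccnd1* fell from 1.89 to 0.59 without FGF2 replicate 3, and the groups are not balanced over the replicate sets. The replicate block, a paired fit, changed no other call, and leaving out 1 library changed no count of calls in the 3 FGF comparisons, whose counts stayed at 0.

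Under the replicate block, the log2(fold-change) of *Ccne2* became 1.70 in SAG against DMSO and 2.84 in FGF2 against PBS. In FGF10 against PBS it became 0.27 for *Ccnd1*, 0.11 for *Cdk4*, 3.94 for *Ccne1*, -2.37 for *Ccne2*, 0.35 for *Cdk2* and -0.14 for *Rb1*. In FGF2 against FGF10 the paired values were 0.063 for *Ccnd3*, -0.079 for *Cdk4*, -0.31 for *Ccne1*, 1.81 for *Ccne2*, 0.53 for *Rb1* and -3.45 for *E2f1*. Within replicates 1 and 2, FGF2 against PBS gave -0.083 for *Cdk4*, 0.21 for *Rb1* and -2.64 for *E2f1*, and FGF10 against PBS gave 0.55 for *Ccnd1*, -0.043 for *Ccnd3*, 0.28 for *Cdk4*, -0.25 for *Cdk6*, 3.91 for *Ccne1*, -0.085 for *Ccne2* and 0.22 for *Cdk2*. Within replicates 3 and 4, FGF2 against PBS gave 10.65 for *Ccne2*.

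With each library left out in turn, the sign was not stable for *Ccnd3* (-0.041 to 0.21) and *Ccne2* (-2.03 to 8.40) in SAG against DMSO. In FGF2 against PBS this held for *Cdk4* (-0.19 to 0.26), *Ccne1* (-0.50 to 4.27), *Ccne2* (-1.13 to 0.53), *Cdk2* (-0.57 to 0.20), *Rb1* (-0.54 to 0.29) and *E2f1* (-1.71 to 1.70). In FGF10 against PBS it held for *Ccnd1* (-1.29 to 0.092), *Ccnd3* (-0.13 to 0.60), *Cdk4* (-0.26 to 0.095), *Cdk6* (-0.30 to 0.24), *Ccne1* (-1.91 to 2.74), *Cdk2* (-0.45 to 0.43), *Rb1* (-0.85 to 0.59), *E2f1* (-0.42 to 0.98) and *Ccne2* (-10.48 to 0.92). In FGF2 against FGF10 it held for *Ccnd3* (-0.30 to 0.26), *Cdk4* (-0.12 to 0.33), *Ccne2* (-1.46 to 10.27), *Cdk2* (-0.52 to 0.14), *Rb1* (-0.68 to 0.79) and *E2f1* (-2.11 to 1.68). *Ccne1*, *Ccne2*, *Cdk2* and *E2f1* were at 0 in 1 to 8 libraries. As an example, *Ccne1* had 0 counts in SAG replicate 2, with a total of 68342287, and 293 in SAG replicate 1, with 33099020. The part of depth in these zeros was not tested.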

Other observations

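The genes whose log2 CPM followed that of 3 members most closely over the 17 libraries were taken from 6721 genes with a mean of at least 20 CPM. For *Cdk6* they were *Grk3* (Pearson's r of 0.878), *Ptch1* (0.846), *Pcx* (0.814), *Stx4a* (0.807) and *Cerk* (0.801). For *Ccnd1* they were *Acsbg1* (0.923), *Ckb* (0.921), *Hmgcs1* (0.893), *Atp5b* (0.885) and *Tmem176b* (0.879). *Acsbg1* activates fatty acids, *Hmgcs1* makes a precursor of cholesterol and *Ckb* is the brain creatine kinase, so none of these 3 is a cell cycle gene. For *Ccnd2* they were *Rab12* (0.822), *Thyn1* (0.716), *2900026A02Rik* (0.709), *Ptma* (0.697) and *Nfe2l2* (0.681). The libraries share groups, replicate sets and depth, so these values describe the table only.

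Among the members themselves, *Ccnd1* and *Cdk4* had the highest correlation (0.73), while *Cdk4* and *Cdk6* were unrelated (-0.0152), as were *Ccnd1* and *Ccnd2* (-0.0624). *Ccnd3* went against *Cdk4* (-0.641) and *Ccnd1* (-0.519).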
